A study of Homo sapiens with 9 samples.

Results

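PAX2, PAX8, SIX2, LHX1, SALL1, EYA1 and WT1 are transcription factors and a transcriptional cofactor of the developing kidney. Their rows were found by gene symbol, and all 7 were present among the 17911 genes of the deposited count table. The question addressed was whether cultures grown as capsules or as spheroids carry an embryonic kidney programme. The libraries were 3 labelled capsule and 6 labelled liquid overlay spheroid, of which the labels call 3 small and 3 large. The labels assign every sample to MDA-MB-231, an established human line from a triple-negative breast cancer, as wild-type cells in RPMI with 10% fetal bovine serum. They give capsules and spheroids 1 treatment text, which names liquid overlay, 5% Matrigel, trastuzumab (an antibody against the receptor ERBB2) and 96 h of culture before RNA was taken.

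The 6 spheroid columns carry 2 kinds of name, L.O and Sph.WT, with 3 columns each. Neither name gives a size, so it is not known which set is small or large, and the sets are called L.O and Sph.WT here. The names of the capsule and L.O columns also hold the letters MDA and the word subread, those of the Sph.WT columns hold neither. A difference in how the columns were made and a difference between cultures cannot be told apart for any comparison with Sph.WT. Nothing in the labels says that replicates came from separate cultures, so p-values measure the spread between these libraries, which may be technical.

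In the embryo, the metanephric kidney forms from the ureteric bud and the mesenchyme around it. Mesenchymal nephron progenitors form a cap over each bud tip, where SIX2 keeps them undifferentiated together with SALL1, EYA1, WT1 and PAX2, and their GDNF signals through RET and GFRA1 to make the bud branch. Progenitors that leave the cap form the renal vesicle, in which LHX1 and PAX8 act, and WT1 later marks the podocytes of the glomerulus.

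Marker genes of the cell line split the libraries as the column names do. The 24 analysed genes that are highly expressed in MDA-MB-231 summed to 1499 to 1578 counts per 1000000 counts (CPM) in capsule, 1862 to 1967 CPM in L.O and 10858 to 11836 CPM in Sph.WT libraries. All 24 reached 1 CPM in every Sph.WT library, against 17 in capsule and 20 in L.O. Of the 24, 23 were called lower in capsule than in Sph.WT. GSTP1 ran the other way, at 306 CPM in capsule, 338 CPM in L.O and 199 CPM in Sph.WT. CDKN2A and CDKN2B, which are deleted in MDA-MB-231, summed to 494 to 572 CPM in capsule, 506 to 732 CPM in L.O and 0.662 to 1.16 CPM in Sph.WT. The capsule and L.O libraries therefore go against the MDA-MB-231 label in these sums. The 8 analysed genes that are highly expressed in HEK293, a line made from human embryonic kidney cells, summed to 2113 to 2285 CPM in capsule, 1964 to 2168 CPM in L.O and 252 to 299 CPM in Sph.WT. SOX2 and NEFL of that list had 0 counts in all Sph.WT libraries, while PEG10 ran the other way, at 1.01 CPM in capsule, 2.65 CPM in L.O and 236 CPM in Sph.WT. These lists and the kidney factors below separate the same libraries, though not all in the same direction. The part of these lists in those results was not tested. In bulk RNA, fewer cells of a type and less RNA per cell cannot be told apart.

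Library totals were 13212665 to 13735221 counts in capsule, 15525725 to 15988167 counts in L.O and 16605098 to 33263076 counts in Sph.WT. Pearson's r of log2 CPM between libraries, across genes that are not independent, was 0.993 to 0.996 within a set. It was 0.979 to 0.986 between capsule and L.O and 0.750 to 0.773 between either and Sph.WT.

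The start regions of SIX2, PAX8 and PAX2 are shown because SIX2 and PAX8 had opposite patterns and PAX2 differed most between capsule and L.O. Promoter windows of 250 bases before to 50 after the start were taken from RefSeq (GRCh38.p14). Windows were examined for 4 of the 7 genes, SIX2, PAX8, PAX2 and WT1, and not for the other members. Capitals mark the GC box GGGCGG and the CCAAT box CCAAT, read on either strand. No 2 matches overlapped.

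SIX2 is encoded on the minus strand, and its window is chr2:45009403-45009702. It holds 2 GC boxes and 1 CCAAT box.
SIX2: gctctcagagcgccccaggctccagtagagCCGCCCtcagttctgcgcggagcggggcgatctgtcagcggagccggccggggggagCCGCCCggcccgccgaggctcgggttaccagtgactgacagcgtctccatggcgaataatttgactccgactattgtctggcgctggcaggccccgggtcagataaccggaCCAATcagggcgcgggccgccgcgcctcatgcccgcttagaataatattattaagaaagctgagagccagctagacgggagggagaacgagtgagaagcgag
PAX8 is also on the minus strand, with its window at chr2:113278872-113279171. It holds 2 CCAAT boxes and no GC box.
PAX8: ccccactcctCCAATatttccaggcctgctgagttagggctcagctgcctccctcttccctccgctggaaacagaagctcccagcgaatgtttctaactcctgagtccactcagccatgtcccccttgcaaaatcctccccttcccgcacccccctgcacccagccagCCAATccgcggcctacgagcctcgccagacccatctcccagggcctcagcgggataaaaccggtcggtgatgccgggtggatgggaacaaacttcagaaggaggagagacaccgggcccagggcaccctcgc
PAX2 is on the plus strand, and the window of its first start is chr10:100735146-100735445. It holds none of the motifs searched.
PAX2: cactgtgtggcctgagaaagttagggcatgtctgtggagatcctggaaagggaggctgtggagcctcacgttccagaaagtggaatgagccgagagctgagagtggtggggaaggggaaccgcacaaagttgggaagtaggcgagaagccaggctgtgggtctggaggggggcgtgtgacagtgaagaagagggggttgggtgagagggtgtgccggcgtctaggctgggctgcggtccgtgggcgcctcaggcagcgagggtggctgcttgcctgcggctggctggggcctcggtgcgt

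Among all 35116 RefSeq windows of 300 bases, the GC box was found in 45.0%, the CCAAT box in 34.6%, the TATA box TATAAA in 11.5% and GCGGGGGCG, a site bound by WT1 and EGR1, in 5.07%. None of the 3 windows shown holds the TATA box or the WT1 and EGR1 site. The windows had 64% (SIX2), 62% (PAX8) and 63.7% (PAX2) G and C, against a median of 58.7% over all windows. SIX2 had 29 CpG dinucleotides, PAX8 13 and PAX2 14, against a median of 14. PAX2 has a second listed start, and counts per gene do not say which start was used.

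Of the genes that act in the cap mesenchyme, SIX2 had the highest level per kilobase of the 7 in capsule and L.O libraries. SIX2 (chr2:45005182-45009452) is the homeobox factor that maintains nephron progenitors. It had 71.5, 60.6 and 61.6 CPM in capsule libraries, 52.6, 55.2 and 59.8 CPM in L.O libraries and 2.57, 1.86 and 1.93 CPM in Sph.WT libraries. All 3 capsule values lay above all L.O values, and all values of both sets lay far above Sph.WT. Mean CPM was 64.6 ± 6.01 in capsule, 55.9 ± 3.67 in L.O and 2.12 ± 0.389 in Sph.WT (SD, n = 3 each), so capsule was 30.5-fold and L.O 26.4-fold above Sph.WT. SIX2 ranked between percentiles 77.6 and 81.3 of all genes by CPM in capsule libraries and between 29.1 and 31.2 in Sph.WT.

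SALL1 (chr16:51135982-51152334), a zinc finger repressor required for ureteric bud invasion, had nearly no reads in Sph.WT. It had 50.6, 45.6 and 48.5 CPM in capsule libraries, 56.4, 59.0 and 59.5 CPM in L.O libraries and 0, 1 and 1 counts in Sph.WT libraries. Every L.O value was above every capsule value, and Sph.WT stood apart at or near 0. The ratio of summed counts per summed total was 1681 for capsule over Sph.WT (95% counting interval 465 to 13887) and 2033 for L.O over Sph.WT (562 to 16799). These intervals cover counting error only.

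EYA1 (chr8:71197433-71548094) encodes the phosphatase and cofactor that works with SIX2 and its paralogs, and had reads in all 9 libraries. It had 17.5, 13.8 and 14.9 CPM in capsule, 14.7, 13.4 and 10.4 CPM in L.O and 0.151, 0.271 and 0.602 CPM in Sph.WT. Capsule and L.O values overlapped, and both sets lay above Sph.WT. The means were 45.1-fold higher in capsule and 37.6-fold higher in L.O than in Sph.WT, whose libraries held 22 EYA1 counts in all.

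WT1 (chr11:32387775-32435539), a zinc finger factor of progenitors and podocytes, was the member that differed least from Sph.WT. It had 12.0, 9.54 and 8.61 CPM in capsule, 11.3, 13.1 and 12.3 CPM in L.O and 4.58, 6.19 and 6.44 CPM in Sph.WT. Capsule and L.O overlapped, and neither overlapped Sph.WT, where WT1 was still clearly detected with 404 counts in all. Mean CPM was 1.75-fold higher in capsule and 2.13-fold higher in L.O than in Sph.WT.

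PAX2 and LHX1 had reads in every capsule and L.O library and none in Sph.WT. PAX2 (chr10:100735396-100829944), a paired box factor of both the bud and the induced mesenchyme, had 5.07, 3.93 and 4.41 CPM in capsule and 12.3, 12.1 and 14.2 CPM in L.O. Its L.O values were all more than 2-fold above its capsule values, and the 0 counts in Sph.WT are compatible with up to 3 counts per library, or 0.0902 to 0.181 CPM. Against the highest of those limits, the lowest capsule library was at least 21.8-fold higher and the lowest L.O library at least 66.8-fold higher. LHX1 (chr17:36936785-36944612), a LIM homeobox factor needed for the ureteric bud and the renal vesicle, had 3.48, 3.06 and 3.90 CPM in capsule and 5.82, 8.01 and 4.19 CPM in L.O. All L.O values lay above the capsule values, though the lowest lay close to them. LHX1 was at least 16.9-fold higher in capsule and at least 23.2-fold higher in L.O than in Sph.WT.

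PAX8 ran opposite to the other 6 genes. PAX8 (chr2:113215997-113278921) is the paired box factor that acts beside PAX2 in the early nephron and also marks thyroid and Müllerian tissue. It had 0.303, 0.0728 and 0.221 CPM in capsule libraries, from 4, 1 and 3 counts, and 0.0640, 0.313 and 0.386 CPM in L.O libraries, from 1, 5 and 6 counts. In Sph.WT it had 40.4, 54.5 and 39.0 CPM, from 803, 1813 and 648 counts. Capsule and L.O overlapped near 0, and mean CPM was 225-fold lower in capsule and 175-fold lower in L.O than in Sph.WT. The antisense gene PAX8-AS1 moved with it, at 0.0757 CPM in capsule, 0.298 CPM in L.O and 103 CPM in Sph.WT. It lies on the opposite strand and shares 685 bases, or 9.26%, of the PAX8 exons of GENCODE release 29. How the counting handled strand is not stated in the sources used here, so the reads of the pair cannot be told apart over those bases. WT1-AS shares 113 bases, or 2.75%, of the WT1 exons and lay on the side of WT1, with 1.90 CPM in capsule, 3.35 CPM in L.O and 0 counts in Sph.WT.

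**Figure D1:**
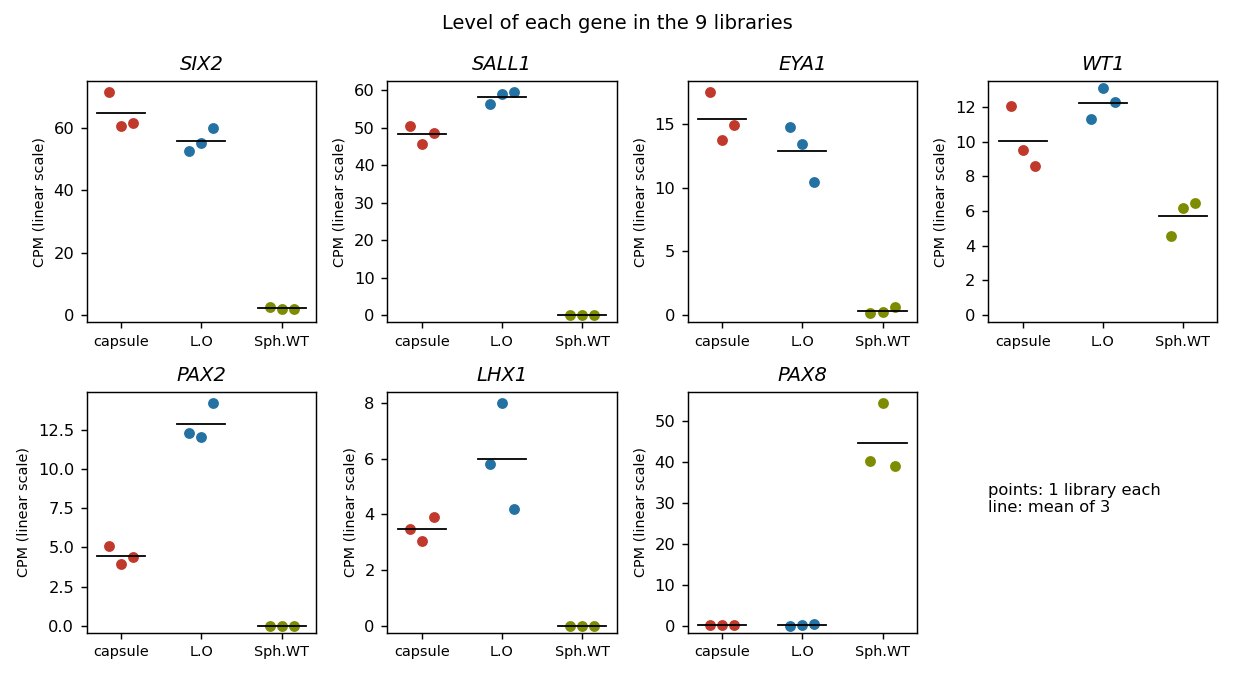
Expression of the 7 kidney factors in each library, in CPM, for capsule, L.O and Sph.WT libraries (3 each). Points are libraries and lines are set means. SIX2, SALL1, EYA1, PAX2, LHX1 and WT1 lie higher in capsule and L.O than in Sph.WT, and PAX8 lies at 39.0 to 54.5 CPM in Sph.WT and at most 0.386 CPM elsewhere.

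Per kilobase of exon, the order of levels was nearly shared by capsule and L.O and differed in Sph.WT. In capsule libraries SIX2 averaged 29.3 CPM per kilobase, SALL1 8.52, WT1 2.45, EYA1 1.63, PAX2 0.716, LHX1 0.713 and PAX8 0.0269. Each neighbour in that order was separated by non-overlapping libraries except PAX2 and LHX1. In L.O libraries SIX2 averaged 25.3 CPM per kilobase, SALL1 10.3, WT1 2.97, PAX2 2.06, EYA1 1.36, LHX1 1.23 and PAX8 0.0344, with overlap only between EYA1 and LHX1. In Sph.WT libraries PAX8 led at 6.03 CPM per kilobase, followed by WT1 at 1.40, SIX2 at 0.961, EYA1 at 0.0362 and SALL1 at 0.00532. WT1 and SIX2 overlapped there, as did SALL1 with PAX2 and LHX1, both at 0. Exon lengths join all annotated transcripts of a gene, so these levels are approximate.

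Set against all 6 spheroid libraries together, no difference was called at any of the 7 genes in capsule libraries. By edgeR's quasi-likelihood test, 0 of 7 passed an adjusted p of 0.05, where 3.76% of the 16985 genes tested did (2.3% higher and 1.47% lower). PAX8 alone had an unadjusted p under 0.05 (0.0273), with a log2 fold change of -7.09 ± 2.66 (SE) and an adjusted p of 0.142. The adjusted p of the other 6 lay between 0.452 (SIX2) and 0.919 (PAX2). DESeq2 called PAX8 (adjusted p = 4.55e-04) among 3990 genes called, and limma voom called none of the 7. With a level for each spheroid set and capsule set against the mean of both, edgeR called 6 of the 7 and not WT1. It called 12643 of the 16985 genes tested in that fit, so 6 of 7 is no result about the members as a group. The log2 fold change was then 3.92 for PAX2 (adjusted p = 1.33e-08), 2.49 for SIX2 (9.62e-17), 5.00 for SALL1 (3.55e-18), 2.83 for EYA1 (1.59e-12), 4.10 for LHX1 (1.35e-07) and -4.15 for PAX8 (9.02e-07). Those of PAX2, LHX1 and SALL1 depend on fitted values at or near 0 counts in Sph.WT. That of PAX8 depends on fitted values near 0 counts in capsule and L.O. The 6 spheroid libraries hold both sets. The coefficient of variation between libraries was 66.0% with all spheroid libraries as 1 level, against 7.73% with a level for each set. With 1 spheroid level the intervals of the log2 fold change were correspondingly wide, such as -4.09 to 3.34 for PAX2 and -2.72 to 4.47 for SALL1.

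Against L.O alone, 4 of the 6 members tested passed, SIX2 and EYA1 higher and PAX2 and LHX1 lower in capsule. Of the 15919 genes tested, 50.1% passed (24.7% higher and 25.4% lower), and against that background 4 of 6 is no result about the members as a group. PAX2 was lower by the largest amount, with a log2 fold change of -1.38 ± 0.15 (SE) and an adjusted p of 3.96e-07 by edgeR. LHX1 changed by -0.64 ± 0.21 on the log2 scale (adjusted p = 0.0175). SIX2 changed by 0.36 ± 0.08 (adjusted p = 0.00165) and EYA1 by 0.41 ± 0.13 (adjusted p = 0.0168). LHX1 lost its call without capsule replicate 2 (adjusted p = 0.0831) or without L.O replicate 2 (0.168). EYA1 lost it without capsule replicate 1 (0.111), without L.O replicate 3 (0.0663) or with scaling by library totals (0.115). Neither SALL1 (log2 fold change -0.13, 95% interval -0.28 to 0.02, adjusted p = 0.176) nor WT1 (-0.14, -0.40 to 0.13, adjusted p = 0.420) passed. With library totals SALL1 did, at -0.27 (adjusted p = 0.00622). PAX8 was left out by the filter on low counts.

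Against Sph.WT alone, all 7 members passed, where 86.1% of the 16157 genes tested did (43.2% higher and 42.9% lower). Capsule was higher at 6 of the 7 and lower at PAX8. The log2 fold change was 4.67 ± 0.13 (SE) for SIX2, 5.29 ± 0.25 for EYA1 and 0.53 ± 0.16 for WT1, with adjusted p-values from edgeR of 5.93e-17, 1.74e-13 and 0.00592. PAX8 had a log2 fold change of -8.06 ± 0.27. PAX8, at 4, 1 and 3 counts in capsule libraries, passed the filter on low counts through Sph.WT alone. SALL1, PAX2 and LHX1 had 2, 0 and 0 counts over the Sph.WT libraries and passed that filter through capsule alone. The calls of PAX8, SALL1, PAX2 and LHX1 rest on fitted values at or near 0 counts in 1 set, so their p-values are not given as support. Their ratios and lower bounds are those given above. WT1 lost its call without capsule replicate 1 (log2 fold change 0.35, adjusted p = 0.0791).

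**Figure D2:**
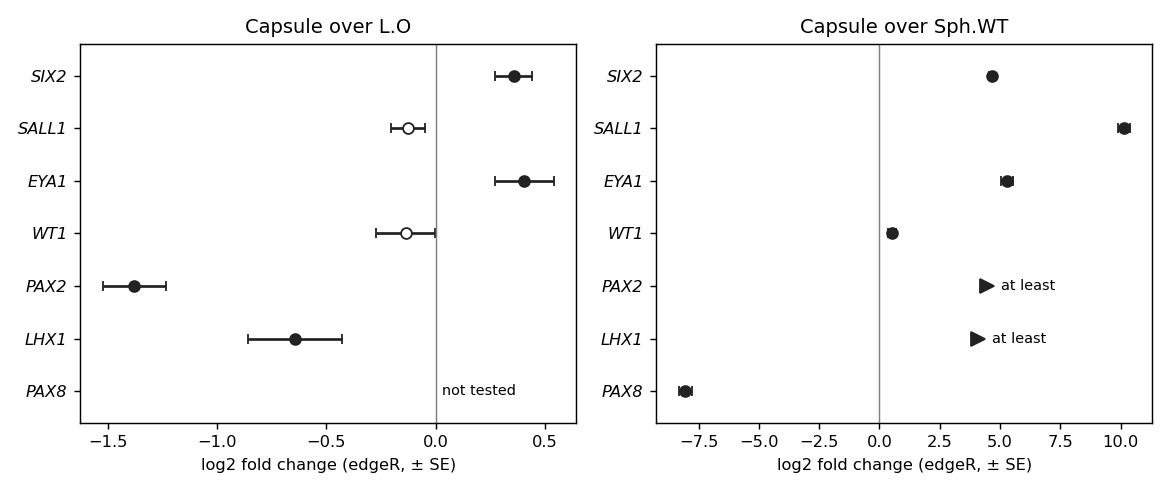
Log2 fold changes of the 7 factors from edgeR for capsule over L.O (left) and capsule over Sph.WT (right), on axes of different range. Bars are standard errors, filled points passed an adjusted p of 0.05 and open points did not. Triangles are lower bounds for PAX2 and LHX1, which had 0 counts in Sph.WT. PAX2 lies at -1.38 against L.O, and PAX8 lies at -8.06 against Sph.WT.

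Between the spheroid sets, L.O was higher than Sph.WT at 6 of the 7 genes and lower at PAX8. Of the 16985 genes tested, 85.5% passed (42.4% higher and 43.1% lower). The log2 fold change of L.O over Sph.WT was 4.27 ± 0.13 (SE) for SIX2, 4.85 ± 0.26 for EYA1, 0.62 ± 0.15 for WT1 and -7.88 ± 0.25 for PAX8. The adjusted p-values from edgeR were 5.42e-19 for SIX2, 3.60e-14 for EYA1 and 6.42e-04 for WT1. PAX8, at 1, 5 and 6 counts in L.O libraries, passed the filter on low counts through Sph.WT alone. Its p-value is therefore not given as support. This comparison shares the Sph.WT libraries with the preceding one, and came from the fit of all 9 libraries with a level for each set.

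For each member, the genes with the most similar pattern over the 9 libraries were found by the root mean square difference of log2(CPM + 0.5) after centring each gene. SALL1 was nearest to ALDH1A2 (0.0822), which makes retinoic acid, to BMP7 (0.0886), a growth factor that keeps nephron progenitors alive, and to AUTS2 (0.101). PAX2 was nearest to the cation channel gene TRPV4 (0.104), to DLGAP3 (0.118) and to the Notch target HES5 (0.125). HES5 had 4.02 CPM in capsule, 11.9 CPM in L.O and 0 counts in Sph.WT. PAX8 was nearest to the DNA sensor CGAS (0.144), the histamine methyltransferase HNMT (0.225) and the receptor TLR2 (0.235). CGAS had 0.173 CPM in capsule, 0.170 CPM in L.O and 39.5 CPM in Sph.WT. SIX2 was nearest to the fatty acid elongase ELOVL2 (0.127), to BEX2 (0.134) and to the nuclear receptor NR4A1 (0.137). LHX1 was nearest to RUBCNL (0.178), OSTN (0.183) and MDGA2 (0.190). EYA1 was nearest to the drug transporter ABCB1 (0.171), to RADX (0.185) and to GPRIN3 (0.201). WT1 was nearest to MYLK-AS1 (0.0760), PTPRG-AS1 (0.0786) and PIERCE1 (0.0902). A distance over 9 libraries in 3 sets mostly describes the level of each set.

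Genes around the 7 factors in kidney development were taken from lists of paralogs, compartments and cofactors. Counts below are for capsule over Sph.WT, where the median log2 fold change of all genes tested was 0.01 and 43.2% were higher. Among nephron progenitor and cap mesenchyme genes, 11 of 14 tested were higher and 3 lower, with a median log2 fold change of 5.08 once genes at 0 counts in Sph.WT were set to their lower bound. HOXD11, a HOX gene that patterns the metanephric mesenchyme, had 47.9 CPM in capsule, 54.9 CPM in L.O and 0.0401 CPM in Sph.WT. Its paralog HOXA11 had 43.1 CPM in capsule, 62.1 CPM in L.O and 0.378 CPM in Sph.WT. EMX2, a homeobox factor of the urogenital ridge, had 11.1 CPM in capsule, 15.7 CPM in L.O and 0 counts in Sph.WT. ITGA8, the integrin subunit through which the mesenchyme is induced to make GDNF, had 6.87 CPM in capsule, 15.3 CPM in L.O and 0 counts in Sph.WT. PHF19, a Polycomb subunit, went the other way, at 46.6 CPM in capsule, 61.5 CPM in L.O and 98.7 CPM in Sph.WT. Its log2 fold change for capsule over Sph.WT was -1.36 ± 0.08 (adjusted p = 4.20e-12 by edgeR). OSR1 and TRPS1 were lower in capsule than in Sph.WT as well. OSR1 had 0.345 CPM in capsule, 0.974 CPM in L.O and 11.0 CPM in Sph.WT. TRPS1 had 22.8 CPM in capsule, 19.7 CPM in L.O and 30.2 CPM in Sph.WT.

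Kidney stroma genes were higher in capsule at 6 of 8 tested and lower at 2, with a median log2 fold change of 5.29. FOXD1, the forkhead factor that marks stromal progenitors, had 29.7 CPM in capsule, 48.4 CPM in L.O and 0.0704 CPM in Sph.WT. ALDH1A2 had 101 CPM in capsule, 120 CPM in L.O and 0.596 CPM in Sph.WT.

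Paralogs of the members were mostly higher in capsule as well. All 5 PAX paralogs tested were higher, with a median log2 fold change of 3.10 with bounds. PAX6, the eye and brain factor, had 66.1 CPM in capsule, 64.1 CPM in L.O and 2.98 CPM in Sph.WT. All 11 SALL and LIM homeobox paralogs and partners tested were higher, with a median of 2.02, and SALL3 and LHX8 had 0 counts in Sph.WT. Among the paralogs of SIX2 and EYA1 and their DACH partners, 7 of 9 were higher and 1 lower, with a median of 1.64. EYA2 had 6.56 CPM in capsule, 9.73 CPM in L.O and 0.157 CPM in Sph.WT.

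Later and epithelial compartments were mixed. Of ureteric bud genes, 6 of 11 tested were higher and 5 lower (median 0.44). The GDNF receptor RET had 6.17 CPM in capsule, 8.25 CPM in L.O and 0.0770 CPM in Sph.WT, and its co-receptor GFRA1 had 11.3 CPM in capsule, 20.0 CPM in L.O and 0.0368 CPM in Sph.WT. ETV4, a factor induced by RET signalling in the bud, had 7.33 CPM in capsule, 9.03 CPM in L.O and 48.0 CPM in Sph.WT. Of renal vesicle and early nephron genes, 6 of 14 were higher and 8 lower (median -0.60). BMP7 had 60.1 CPM in capsule, 71.4 CPM in L.O and 0.167 CPM in Sph.WT. The receptor NOTCH2 lay on the other side, with 144 CPM in capsule, 170 CPM in L.O and 597 CPM in Sph.WT, as did the cyclin CCND1, with 73.9 CPM in capsule, 82.9 CPM in L.O and 368 CPM in Sph.WT. Of podocyte genes, 4 of 11 were higher and 7 lower (median -1.80). PODXL, which encodes podocalyxin, had 38.5 CPM in capsule, 35.4 CPM in L.O and 640 CPM in Sph.WT. Of tubule genes, 3 of 7 were higher and 3 lower (median 0.38), and only 8 of the 18 listed genes were analysed at all. The carbonic anhydrase gene CA2 had 400 CPM in capsule, 224 CPM in L.O and 0.448 CPM in Sph.WT, and the sodium channel subunit SCNN1A had 1.81 CPM in capsule, 2.15 CPM in L.O and 102 CPM in Sph.WT. Of cofactors and regulators of PAX2, WT1 and SIX2, 9 of 15 were higher and 5 lower (median 0.41). BMP4, which limits bud outgrowth, had 12.1 CPM in capsule, 19.2 CPM in L.O and 757 CPM in Sph.WT.

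**Figure D3:**
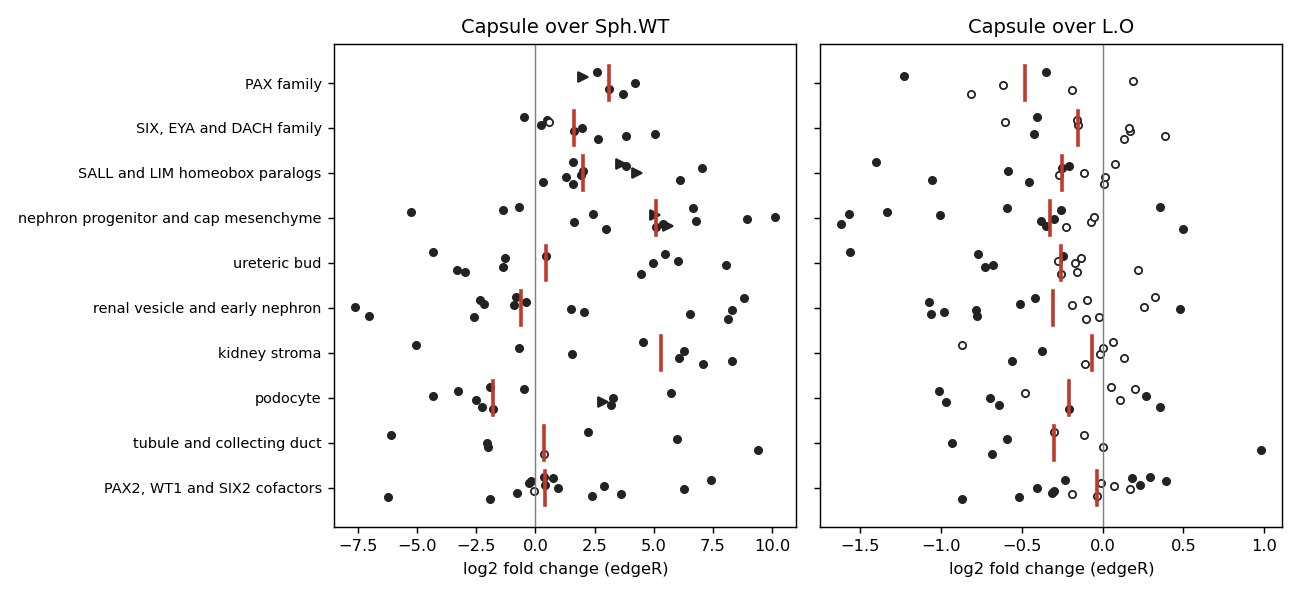
Log2 fold changes of the kidney development lists for capsule over Sph.WT (left) and capsule over L.O (right), on axes of different range. Points are genes, filled where an adjusted p of 0.05 was passed and open where not, triangles are lower bounds of genes with 0 counts in Sph.WT, and red bars are medians. The medians of the nephron progenitor and stroma lists lie at 5.08 and 5.29 on the left, and all 10 medians lie below 0 on the right.

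Against L.O, the medians of these lists lay below 0 in capsule, and their median log2 fold changes ranged from -0.48 (PAX paralogs) to -0.03 (cofactors), beside -0.01 for all genes tested. The direction of these medians held with median-of-ratios scaling and with library totals, under which the median of all genes moved to -0.16. Of nephron progenitor genes, 2 of 14 were higher and 9 lower, and of renal vesicle genes 1 of 14 was higher and 7 lower, beside 24.7% higher and 25.4% lower overall. No gene was higher among 6 PAX paralogs (2 lower), 9 paralogs and partners of SIX2 and EYA1 (2 lower), 11 SALL and LIM paralogs (6 lower), 11 ureteric bud genes (5 lower) and 8 stroma genes (2 lower). Of podocyte genes 2 of 11 were higher and 5 lower, of tubule genes 1 of 7 was higher and 3 lower, and of cofactors 4 of 15 were higher and 6 lower. The stroma list and that of SIX2 and EYA1 paralogs had a share of lower genes at or under that of all genes, and the cofactor median lay next to that of all genes. ITGA8 was lower in capsule by 1.01 on the log2 scale (log2 fold change -1.01, adjusted p = 3.91e-06). FOXD1 had a log2 fold change of -0.56 (adjusted p = 5.71e-04). The Notch ligand DLL1 had 15.4 CPM in capsule and 35.6 CPM in L.O (log2 fold change -1.06, adjusted p = 4.45e-08). CA2 was the reverse, at 0.98 (adjusted p = 3.40e-09).

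Markers of other cell types summed to less in every capsule library than in any L.O or Sph.WT library, for all 4 lists. Between L.O and Sph.WT, the fibroblast sum was higher in L.O and the other 3 sums were lower. The immune list, with 3 of 6 genes analysed, summed to 14.8 to 16.0 CPM in capsule, 36.6 to 39.4 CPM in L.O and 130 to 147 CPM in Sph.WT. Endothelial genes, 4 of 6 analysed, summed to 2.13 to 2.65 CPM in capsule, 3.14 to 4.19 CPM in L.O and 6.08 to 10.4 CPM in Sph.WT. The 6 of 7 fibroblast genes analysed summed to 111 to 121 CPM in capsule, 228 to 257 CPM in L.O and 172 to 204 CPM in Sph.WT. Breast luminal genes, 5 of 6 analysed, summed to 50.5 to 57.2 CPM in capsule, 69.2 to 76.2 CPM in L.O and 287 to 353 CPM in Sph.WT, where PGR had 0 counts. The part of these genes in the results above was not tested.

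**Figure D4:**
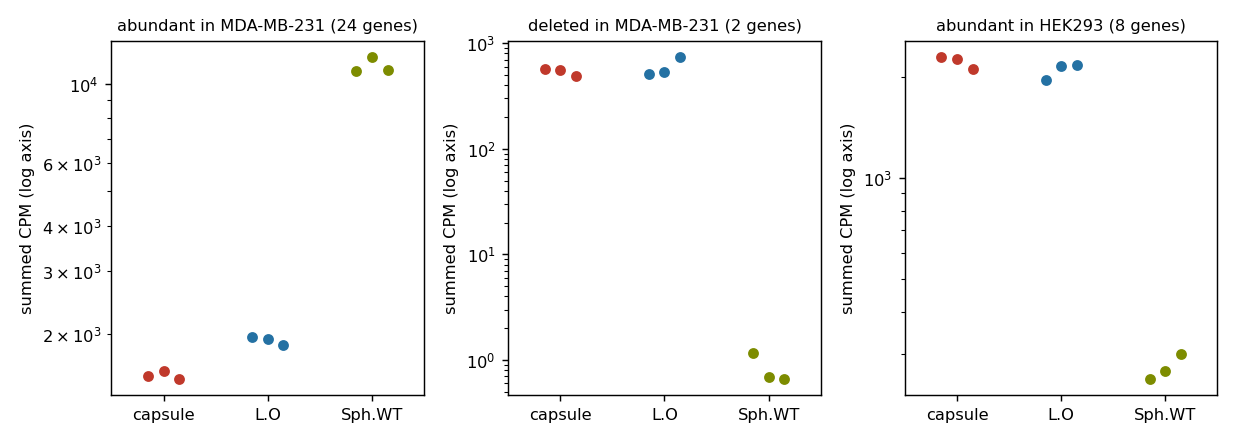
Summed CPM of the cell identity lists in each library, on a log axis, for capsule, L.O and Sph.WT. Highly expressed genes of MDA-MB-231 sum to at least 10858 CPM in Sph.WT and at most 1967 CPM elsewhere, and genes deleted in that line sum to at most 1.16 CPM in Sph.WT and at least 494 CPM elsewhere.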

How the data were processed

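RNA sequencing gave whole-number read counts per gene for 9 libraries, which the authors deposited without normalization as 17911 genes with Entrez IDs, 237 of them without a symbol. The submitters' processing notes name hg38, featureCounts and limma, without versions or roles. For aligner, annotation and strand handling, the answer is not given in the sources used here. Per the labels' protocols, RNA was taken with TRIzol and libraries were made with TruSeq.

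Columns were matched to samples by name. The 3 capsule columns matched 1 sample each, and the other 6 matched the spheroid group without a size. Libraries within a set differed beyond counting noise at 1203 genes or more, so none was a repeat deposit. CPM was counts per library total. The floor for 0 counts was 3 counts, and intervals are 95%. Intervals of count ratios cover counting error only. Those of log2 fold changes come from the standard errors of the edgeR fit, which include the spread between libraries.

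Tests used edgeR 4.0.16 (quasi-likelihood F test, TMM, filterByExpr) in R 4.3.3 on the whole table, with Benjamini-Hochberg adjustment over all genes tested and a threshold of 0.05. The main design had 2 levels, capsule and spheroid. A second had 3 levels, for L.O over Sph.WT. Capsule against either spheroid set used those 6 libraries alone. Standard errors were derived from the F statistic. DESeq2 1.42.0, limma 3.58.1 voom, other scalings, no filter, a replicate block and leaving out each library were alternatives. Replicate numbers were not used to pair the libraries in the main fits, and whether they mark pairs is not known.

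The 7 genes and all lists were chosen with earlier results of these data known. Named genes of each kidney list were the 4 called with the largest fold change, in either direction, between L.O and Sph.WT, and the 2 most abundant. Those of each cell identity list were the 3 most abundant. SOX2, PGR, OSR1 and TRPS1 were named after their values were seen. Some genes that this rule names are not reported here. Exon lengths came from GENCODE release 29 for 17130 genes (95.6%). Coordinates and promoter windows came from RefSeq (GRCh38.p14).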

Additional observations from a re-analysis of the deposited data

How the results depend on the processing

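The count of genes called for capsule against all 6 spheroid libraries was 639 (390 higher, 249 lower). It was 603 with median-of-ratios scaling, 585 with no filter and 552 with limma voom (153 lower). Other settings moved it further, to 3990 with DESeq2 (1210 higher, 2780 lower), 359 with library totals (99 higher) and 12643 with a level for each spheroid set (6600 higher, 6043 lower). It was 7970 with L.O alone (3934 higher, 4036 lower) and 13909 with Sph.WT alone (6977 higher, 6932 lower). With the replicate block edgeR called 0 genes (0 higher, 0 lower), with 2856 at an unadjusted p under 0.05. Leaving out 1 library gave 0 to 604 genes (0 to 342 higher, 0 to 262 lower). It was 0 without any 1 of the capsule libraries, with 2448 to 2620 at an unadjusted p under 0.05, 154 to 240 without a Sph.WT library, 287 without L.O replicate 2 and 409 without L.O replicate 3 and 604 without L.O replicate 1. The cause was not tested. In this comparison the log2 fold change of PAX2 turned to 3.09 with limma voom, 3.92 with a level for each set and 9.19 with Sph.WT alone, and ranged from -0.64 to 0.020 when 1 library was left out. With L.O alone LHX1 turned to -0.64, SALL1 to -0.13 and WT1 to -0.14, because the Sph.WT libraries were then left out, and WT1 ranged from -0.0021 to 0.26 with 1 library left out.

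The other comparisons were steadier. With 1 library left out, the count was 6592 to 7925 for capsule against L.O, 13757 to 13988 for capsule against Sph.WT and 14312 to 14760 for L.O against Sph.WT. Library totals moved the median log2 fold change of all genes to -0.16, 0.29 and 0.45 in these comparisons. The split of calls then became 2275 higher and 5852 lower for capsule against L.O, 8202 and 5721 for capsule against Sph.WT and 9349 and 5287 for L.O against Sph.WT. The directions of all 7 members (6 for capsule against L.O) held in these 3 comparisons under every alternative run. Libraries with the same number correlated at -0.27 to 0.11 in their deviations from the set means. With 3 libraries in each set, this cannot decide whether the numbers pair the libraries. The replicate block called 7145, 13876 and 14350 genes in them, and changed no call of a member. Depth limits PAX8 in capsule and L.O libraries, at 1 to 6 counts each.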
